A study of Rattus norvegicus with 3 samples.

Results

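The genes described here are 10 genes used to mark deep layer and corticofugal neurons of the cerebral cortex: Fezf2, Bcl11b, Tbr1, Sox5, Tle4, Foxp2, Zfpm2, Ldb2, Crym and Hs3st4. They were chosen by symbol, and each is listed once among the 29772 genes of the files. Cells of wild-type rat embryonic cerebral cortex, per the labels freshly prepared with papain, were measured by single-cell RNA sequencing in droplets. There are 3 groups of 1 library each, which carry the labels E14, E16 and E18 for the embryonic day. The labels give neither strain nor sex, nor how many embryos were pooled, and all groups share genotype and tissue. With 1 library a group there is no replicate and no test. Intervals are exact Poisson intervals for levels and exact binomial (Clopper-Pearson) intervals for shares, both at 95%, and cover counting error only.

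Excitatory neurons of the cortex are made in sequence, deep layers first, and those of layers 5 and 6 send axons out of the cortex. Fezf2 and Bcl11b (CTIP2) are transcription factors of subcerebral projection neurons, which reach the brainstem and spinal cord from layer 5. Tbr1, Sox5, Tle4, Foxp2 and Zfpm2 (FOG2) are associated with layer 6 and its projection to the thalamus. Tbr1 is known to repress Fezf2 in layer 6. Ldb2 codes for a LIM domain-binding cofactor, Crym for a thyroid hormone-binding protein, and Hs3st4 for a heparan sulfate sulfotransferase.

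After filtering, 4286, 4977 and 5431 cells remained in the libraries labelled E14, E16 and E18, of files that hold 62740631, 80974234 and 73727823 unique molecular identifiers (UMIs). Pairs of libraries shared 12 to 17 cell barcodes, of which 7 or 8 were kept cells. Several genes with a known course through development did not follow the order of the labels. The share of embryonic globin among globin UMIs was 2.57%, 67.4% and 22.01% in label order. In radial glia, Hmga2, known to decline with stage, stood at 12.4, 225 and 21.8 CPM (UMIs per 1000000 UMIs of the class), and Aldoc, known to increase with stage, at 731, 17.1 and 238 CPM. In both, the library labelled E18 lay between the other two, so directions below are between libraries and are not read as a course in time.

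Cells were clustered without the 10 genes, and clusters were named from other markers. Excitatory neurons numbered 3320 (77.5% of cells), 582 (11.7%) and 2391 (44.0%) in label order. Of those labelled E14, 1219 were newborn and 2099 maturing, and of those labelled E18, 1647 and 739. Of those labelled E16, 572 were 1 cluster, number 13, in which newborn and maturing markers were about equally raised. The class is therefore held by different clusters in each library: clusters 0, 2, 6 and 19 with the label E14, 13 with E16, and 4, 8 and 9 with E18.

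The neurons of the library labelled E16 also carried markers of other classes. The summed level of the Cajal-Retzius markers in neurons was 510 CPM there, against 12.8 and 46.4 CPM in the libraries labelled E14 and E18. Reln, the defining gene of Cajal-Retzius cells, was at 147 CPM against 3.99 and 8.66 CPM. All 8 markers of that list that the files hold had UMIs in these neurons and in those labelled E18, and Ebf2 was at 0 in those labelled E14. The sum of the intermediate progenitor markers was 1099 CPM against 363 and 854 CPM. Radial glia markers summed to 773 CPM against 309 and 624 CPM, so both progenitor lists were also higher in neurons labelled E18 than in those labelled E14. GABAergic markers summed to 4.52 to 10.6 CPM in every library. The part of these other markers in the results below was not tested. A gate given below, among the alternative settings, left out cells with a UMI of Eomes, Gad1, Gad2 or Reln.

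Fezf2 and Bcl11b, the genes of subcerebral identity, differed between libraries in different ways. Over all excitatory neurons, Fezf2 was at 186 CPM (182 to 191), 121 (112 to 131) and 192 (186 to 198) in label order. The libraries labelled E14 and E18 overlapped, and that labelled E16 was lower. Bcl11b was at 334 CPM (329 to 340), 993 (967 to 1021) and 949 (937 to 962). Against the library labelled E14, it was 2.97-fold higher in that labelled E16 and 2.83-fold higher in that labelled E18. Folds were computed after adding 1 CPM.

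Of the genes associated with layer 6, Tbr1 was highest in the library labelled E16 and Sox5 lowest there. Tbr1 was at 147 CPM (143 to 151), 558 (538 to 579) and 340.0 (333 to 348) in label order. Sox5 was at 341 CPM (335 to 347), 159 (149 to 170) and 574 (565 to 584) in the same order. No interval of either gene overlapped another. Tle4, a Groucho-family corepressor, was at 101 (98.1 to 104), 145 (135 to 155) and 94.9 CPM (91.0 to 98.9), within 2-fold between every pair of libraries, although from the label E14 to E16 its log2 difference (0.51) was 1.43 with the stricter cell filter and 1.75 without cluster 6, described below.

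Foxp2 and Zfpm2 had few UMIs, 271 to 1385 and 126 to 402 per library. Foxp2, a forkhead factor, was at 25.9 CPM (24.3 to 27.5), 51.3 (45.4 to 57.8) and 58.5 (55.5 to 61.7) in label order, and the libraries labelled E16 and E18 overlapped. Zfpm2, a GATA cofactor, was at 7.46 CPM (6.64 to 8.36), 23.8 (19.9 to 28.4) and 17.0 (15.4 to 18.7). Both were lowest in the library labelled E14. In 119 microglial, endothelial and choroid plexus cells of all libraries, taken as background, Foxp2 was at 4.72 and Zfpm2 at 2.22 CPM. The share of neurons with a Zfpm2 UMI at equal depth, given further on, did not exceed that of these cells in the libraries labelled E14 and E18.

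The 3 remaining genes had their own pattern, and Ldb2 and Crym the widest range between libraries. Ldb2 had 4509, 5 and 860 UMIs in the neurons, which gives 113 CPM (109 to 116), 0.946 (0.307 to 2.21) and 36.3 (33.9 to 38.8). Crym had 3308, 15 and 2470 UMIs, or 82.6 CPM (79.8 to 85.4), 2.84 (1.59 to 4.68) and 104 (100.3 to 109). In the library labelled E16, 0.859% of neurons had a Ldb2 UMI and 2.23% a Crym UMI. Hs3st4 was at 29.4 CPM (27.7 to 31.1), 21.2 (17.5 to 25.5) and 60.6 (57.5 to 63.8), with its highest level in the library labelled E18.

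**Figure D1:**
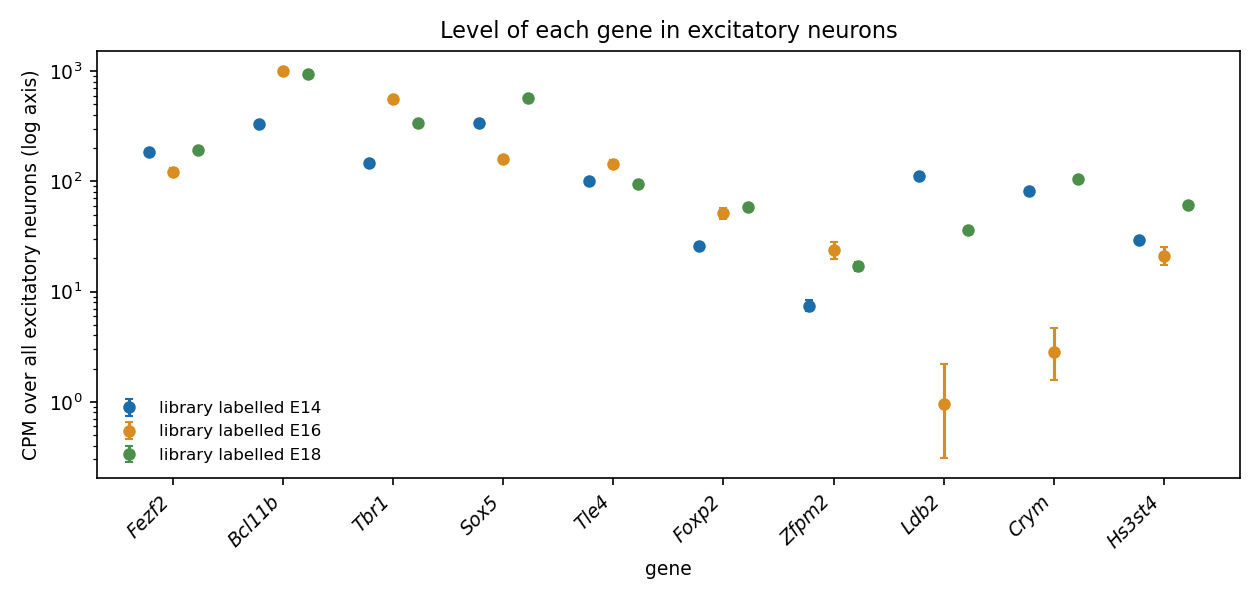
Level of each of the 10 genes in excitatory neurons (vertical log axis, CPM) for the 3 libraries; bars are 95% Poisson intervals and are smaller than the point for many genes. Ldb2 and Crym lie at 0.946 and 2.84 CPM in the library labelled E16, against at least 36.3 and 82.6 CPM in the other two.

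A gene was counted as higher or lower between libraries when it differed by more than 2-fold with intervals that did not overlap. From the library labelled E14 to that labelled E16, Bcl11b, Tbr1 and Zfpm2 were higher and Sox5, Ldb2 and Crym lower, so 3 of 10 in each direction, beside 5.88% and 5.38% of the 9618 genes tested. The median log2 difference of the 10 genes was 0.03 (all genes -0.01). From the library labelled E16 to that labelled E18, Sox5, Ldb2, Crym and Hs3st4 were higher and 0 of 10 lower, beside 2.67% and 2.6% of 9579 genes, with a median of 0.42 (all genes 0.05). From the library labelled E14 to that labelled E18, Bcl11b, Tbr1, Foxp2, Zfpm2 and Hs3st4 were higher and Ldb2 lower, beside 2.51% and 2.32% of 9508 genes, with a median of 0.88 (all genes 0.04). These comparisons share libraries in pairs and are not independent of each other.

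Ldb2 was the only one of the 10 genes past 2-fold between every pair of libraries, but without cluster 6 of the library labelled E14, described below, its log2 difference from that library to the one labelled E18 was -0.89, short of 2-fold, and with a minimum of 20 CPM it was not tested between those labelled E16 and E18. The calls of Foxp2, Zfpm2 and Hs3st4 between the libraries labelled E14 and E18 stood close to the limit, at 2.22-fold, 2.12-fold and 2.03-fold. Under other settings their log2 differences went down to 0.31, 0.63 and 0.84, short of 2-fold. Another setting took neurons by a gate: at least 2 UMIs of Neurod2 and Neurod6 together and no UMI of Eomes, Gad1, Gad2 or Reln. The gate held 2661, 130 and 1545 neurons in label order. With it, Zfpm2 (0.35) and Sox5 (-0.44) between the libraries labelled E14 and E16 were also short of 2-fold. So was Hs3st4 (0.47) between those labelled E16 and E18. From the label E14 to E16, Sox5 was at -0.93 with the stricter cell filter and Zfpm2 at 0.95 with 10 CPM added. Other genes passed 2-fold only under another setting. With the stricter cell filter, Crym from E14 to E18 (0.33) was at 2.41, Sox5 in the same pair (0.75) at 1.10, and Foxp2 from E16 to E18 (0.19) at 1.66. That filter left out 208 of the 212 cells of cluster 19 of the library labelled E14, described below. In the main setting, that cluster held 1330 of the 3308 Crym UMIs of neurons in its library. At resolution 0.5, Sox5 from E14 to E18 was at 1.04.

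Of 33 other deep layer genes, 22, 22 and 21 could be tested in the 3 pairs. From the library labelled E14 to that labelled E16, 5 were higher and 8 lower, from E16 to E18 7 and 3, and from E14 to E18 4 and 0. Their median log2 differences were -0.53, 0.56 and 0.21. Among them Nxph4, a neurexophilin of layer 6, was past 2-fold in all 3 pairs, at 16.6, 215 and 69.7 CPM in label order.

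The neurons of the library labelled E14 divided into clusters with different levels of the 10 genes. Cluster 6 (813 maturing neurons) held Fezf2 at 408, Bcl11b at 652, Sox5 at 643, Tle4 at 221, Ldb2 at 204 and Hs3st4 at 81.9 CPM. Cluster 0 (1286 maturing neurons) held the same genes at 58.6, 87.3, 182, 23.7, 98.5 and 3.55 CPM. All 10 genes were higher in cluster 6. As a fold, the gap was smallest for Tbr1, at 176 and 114 CPM. The 10 genes did not enter the clustering.

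Newborn neurons of the same library were likewise not uniform. Cluster 2 (987 cells) held Tbr1 at 189.8 and Foxp2 at 49.96 CPM, with Crym at 25.7 and Ldb2 at 9.72 CPM. Cluster 19 (212 cells) held Crym at 413 and Bcl11b at 529 CPM, with Foxp2 at 4.35 and Tle4 at 34.2 CPM. Crym in newborn neurons of this library therefore came mostly from 1 small cluster, with 1330 of 1521 UMIs. That cluster was named newborn because the newborn markers had the highest mean log2 difference over other cells, 1.05, against 0.18 for the maturing markers. Of the 8 newborn markers, 7 were raised in it. Neurod1 was at 260.4 CPM against 129.6 CPM in maturing cluster 0 and 607 CPM in cluster 2. Of the 14 maturing markers, 9 were higher in it than in cluster 0 and 12 higher than in cluster 2, and their sum was 7068 CPM against 7192 and 3774 CPM. The newborn markers summed to 4279 CPM against 2776 and 6329 CPM, so the cluster lay between the other two on that list and near cluster 0 on the maturing list.

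Clusters of the library labelled E18 differed less in Bcl11b and Tbr1 and more in the other genes. Cluster 9 (712 maturing neurons) held Crym at 240.2, Hs3st4 at 128, Ldb2 at 68.0 and Sox5 at 874 CPM. Cluster 4 (858 newborn neurons) held them at 1.84, 2.27, 4.67 and 293 CPM, but Foxp2 at 113 against 20.2 CPM in cluster 9. Bcl11b was at 1105 and 658 CPM and Tbr1 at 386 and 274 CPM in clusters 9 and 4.

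**Figure D2:**
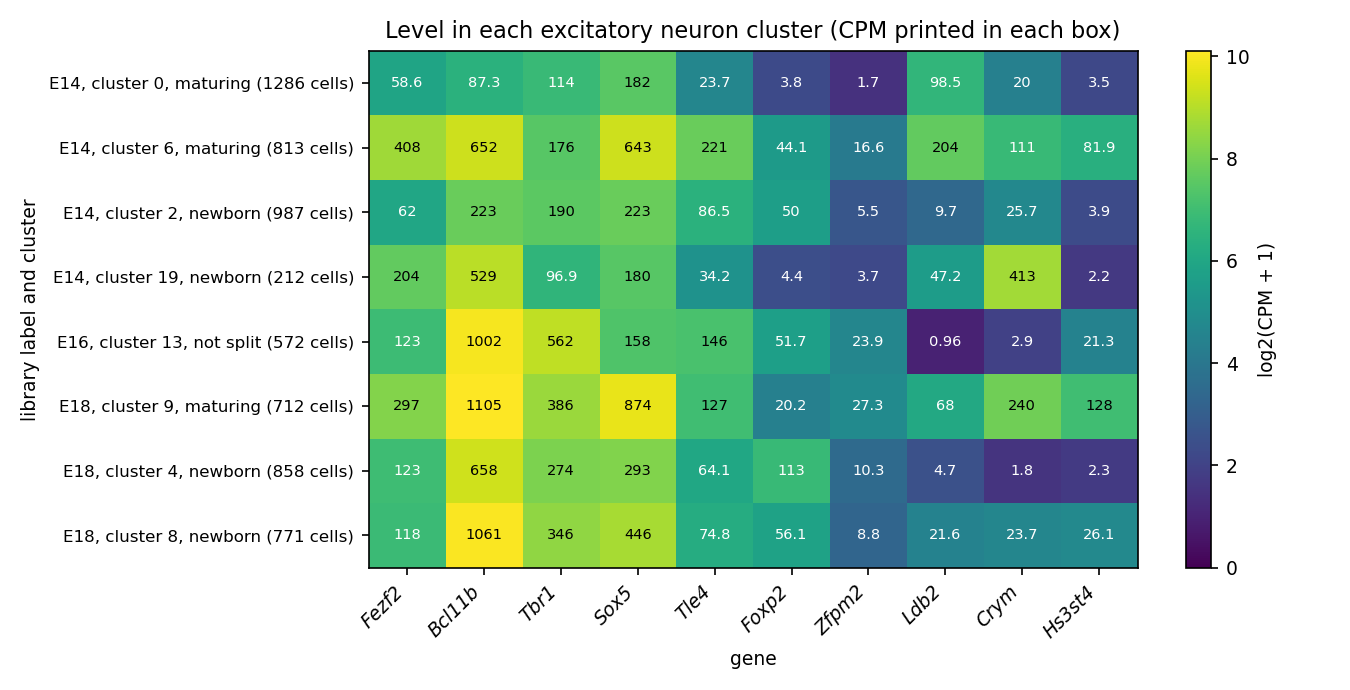
Level of the 10 genes in each excitatory neuron cluster of at least 50 cells (colour, log2 of CPM + 1; printed values, CPM), by library label. Of the library labelled E14, cluster 6 has Fezf2 at 408 and Bcl11b at 652 CPM and cluster 0 has them at 58.6 and 87.3 CPM.

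The values of the library labelled E14 depend on cluster 6, and its name depended on the level set for leading genes. With those taken down to 50 CPM it stays unnamed, because Rspo3, a marker of the cortical hem, is among them. Without it, the median log2 difference of the 10 genes from the library labelled E14 to that labelled E16 was 1.65 in place of 0.03, and to that labelled E18 1.46 in place of 0.88. Tle4, Foxp2 and Hs3st4 were then also past 2-fold higher in the library labelled E16, and Sox5 was no longer past it, while Fezf2, within 2-fold in both cases, went from -0.62 to 0.64. Against the library labelled E18, Fezf2, Sox5 and Tle4 were then also past 2-fold, and Ldb2 was not.

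Between newborn and maturing neurons, the same contrast was available in 2 libraries. In the library labelled E18, Fezf2, Sox5, Zfpm2, Ldb2, Crym and Hs3st4 were higher in maturing neurons and Foxp2 lower, 6 and 1 of 10 beside 7.07% and 4.73% of 9480 genes. With the label E14, Fezf2, Ldb2 and Hs3st4 were higher and Crym lower, 3 and 1 of 10 beside 3.77% and 4.72% of 9498 genes. Hs3st4 went from 13.8 to 128 CPM in the library labelled E18 and from 3.34 to 38.9 CPM in that labelled E14. Ldb2 went from 12.8 to 70.0 and from 20.8 to 146 CPM. Some of these calls were lost under other settings: with the label E18, the log2 difference of Sox5 (1.25) was 0.88 without doublet removal and 0.94 with the looser cell filter, and that of Zfpm2 (1.44) was 0.94 with 10 CPM added. With the label E14, that of Fezf2 (1.03) was 0.97 with 10 CPM added. Others were gained. With the label E14, under the 5 other settings of cell filter, clustering and doublets, Zfpm2 (0.67) was at 1.11 to 1.38 in all 5, and Sox5 (0.90) at 1.09 to 1.55 and Tle4 (0.67) at 1.03 to 1.39 in 4. With the label E18, Tle4 (0.91) was at 1.56 with the looser cell filter and 1.4996 without doublet removal.

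Bcl11b and Tbr1 were within 2-fold between newborn and maturing neurons. Bcl11b was at 852 and 1092 CPM in the library labelled E18 and at 313 and 342 CPM in that labelled E14. With the label E14, maturing neurons join cluster 0 at 87.3 and cluster 6 at 652 CPM of Bcl11b, and at resolution 0.5 its log2 difference (0.13) was 1.55, past 2-fold. Tbr1 was at 309.9 and 384 CPM, and at 162 and 142 CPM. Foxp2 was lower in maturing neurons of the library labelled E18, at 20.1 against 85.2 CPM. In that labelled E14 it stood at 36.3 CPM in newborn and 21.99 CPM in maturing neurons, a log2 difference of -0.70 within 2-fold, which was -0.53 to 0.049 under the 6 alternatives. Crym differed in direction between the libraries, from 12.9 to 235 CPM in that labelled E18 and from 141 to 61.0 CPM in that labelled E14. With the label E14, cluster 2, the larger newborn cluster, was at 25.7 CPM, below the maturing neurons, and cluster 19 at 413 CPM. The log2 difference with this label (-1.20) was 2.14 at resolution 0.5 and 0.044 without doublet removal, and from -0.64 to -0.50, short of 2-fold, with the looser cell filter, at resolution 2 and at 2 times the doublet rate. Of the 212 cells of cluster 19, 0 were newborn and 210 in a cluster not split at resolution 0.5. The stricter cell filter left out 208 of them, and the other 4 were maturing. Without doublet removal 200 stayed newborn. With the looser cell filter, at resolution 2 and at 2 times the doublet rate, 175, 212 and 197 did. What moved the value was not tested.

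Within maturing neurons alone, the library labelled E18 was higher than that labelled E14 in Bcl11b, Tbr1, Sox5, Zfpm2, Crym and Hs3st4 and lower in Ldb2, beside 2.8% and 1.81% of 9451 genes. Within newborn neurons it was higher in Bcl11b, Foxp2 and Hs3st4 and lower in Crym, beside 1.31% and 2.69% of 9407 genes. With a coarser clustering (resolution 0.5), Bcl11b, Sox5, Zfpm2, Crym and Hs3st4 were no longer past 2-fold in maturing neurons, at log2 differences of 0.11 to 0.70, and Tle4 (0.22) was lower, at -1.04. With the stricter cell filter Tle4 was higher instead, at 1.26. Sox5 (1.16) was at 0.84 at resolution 2. Ldb2 in maturing neurons (-1.05) was at -0.93 with the looser cell filter and -0.97 with 10 CPM added. In newborn neurons, Crym (-3.35) was at -0.96 without doublet removal and Hs3st4 (1.77) at 0.83 with 10 CPM added, all short of 2-fold. Past 2-fold under other settings in newborn neurons were Tbr1 (0.93) at 1.00 to 1.13 in 4 settings, Zfpm2 (0.83) at 1.06 to 1.08 in 3, Sox5 (0.81) at 1.201 with the looser cell filter and 1.26 without doublet removal, and Ldb2 (-0.66) at -1.07 at 2 times the doublet rate.

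The genes also differed in how high they were in progenitors. Fezf2 was at 58.1, 74.0 and 71.5 CPM in radial glia, the progenitors of the cortex, in label order, and at 69.8, 125 and 105 CPM in intermediate progenitors. Sox5 was at 87.6, 82.4 and 83.4 CPM in radial glia and Tle4 at 34.99, 87.9 and 59.1 CPM. Bcl11b was lower in radial glia, at 11.7, 58.6 and 26.0 CPM, and at 45.7, 251 and 168 CPM in intermediate progenitors. Tbr1 was at 12.4, 5.56 and 8.17 CPM in radial glia and at 91.7, 162 and 87.5 CPM in intermediate progenitors. Ldb2, Crym and Hs3st4 did not exceed 6.28 CPM in either progenitor class. Foxp2 was at 12.6, 14.9 and 21.5 CPM in radial glia and at 49.5, 28.1 and 49.3 CPM in intermediate progenitors. Zfpm2 was at 10.2, 3.08 and 5.87 CPM, and at 9.53, 8.76 and 7.13 CPM. With the label E14, both were higher in intermediate progenitors than in newborn neurons, at 36.3 and 4.92 CPM. With the label E18, both were lower there than in newborn neurons, at 85.2 and 9.51 CPM. Foxp2 in maturing neurons labelled E18 was at 20.1 CPM.

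From intermediate progenitors to newborn neurons in the library labelled E18, Bcl11b, Tbr1, Sox5, Ldb2, Crym and Hs3st4 were past 2-fold higher and 0 of 10 lower, beside 8.61% and 9.38% of 9511 genes. With the label E14, Bcl11b, Ldb2 and Crym of 9 tested genes were past 2-fold higher and 0 lower, beside 8.72% and 9.24% of 9784 genes. Bcl11b was 5.04-fold higher in the library labelled E18 and 6.73-fold higher in that labelled E14. Fezf2 was within 2-fold in both. This comparison was added after the others were seen.

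Several of the genes were as high or higher outside excitatory neurons. Tbr1 was at 596 CPM (553 to 642) in Cajal-Retzius cells of the library labelled E16, an interval that overlapped that of cluster 13. Those of the library labelled E18 stood at 394 CPM (354 to 439), overlapping maturing neurons. Bcl11b was at 336, 209 and 657 CPM in the GABAergic lineage in label order, and at 454 and 279 CPM in Cajal-Retzius cells of the libraries labelled E16 and E18. These classes were small, with 58 to 74 GABAergic cells and 67 to 131 Cajal-Retzius cells per library.

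Foxp2 was highest in meningeal or fibroblast cells, at 151 CPM (133 to 171) and 101 (76.7 to 130.0) in the libraries labelled E16 and E18. It was also at 110.4 CPM (85.2 to 141) in GABAergic cells of the library labelled E16, where Tle4 stood at 156 CPM (126 to 192), and at 4.83 and 6.84 CPM in those of the other two. Crym was at 46.8 and 23.9 CPM in meningeal or fibroblast cells. Ldb2 was at 72.5 CPM (57.4 to 90.4) in the cortical hem, a patterning centre at the edge of the cortex, against 0.946 CPM in neurons of the same library, and at 57.3 CPM in 26 endothelial cells of all libraries together. Hs3st4 and Zfpm2 were highest in maturing neurons of the library labelled E18, at 128 and 27.5 CPM, the latter overlapping cluster 13 of the library labelled E16.

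**Figure D3:**
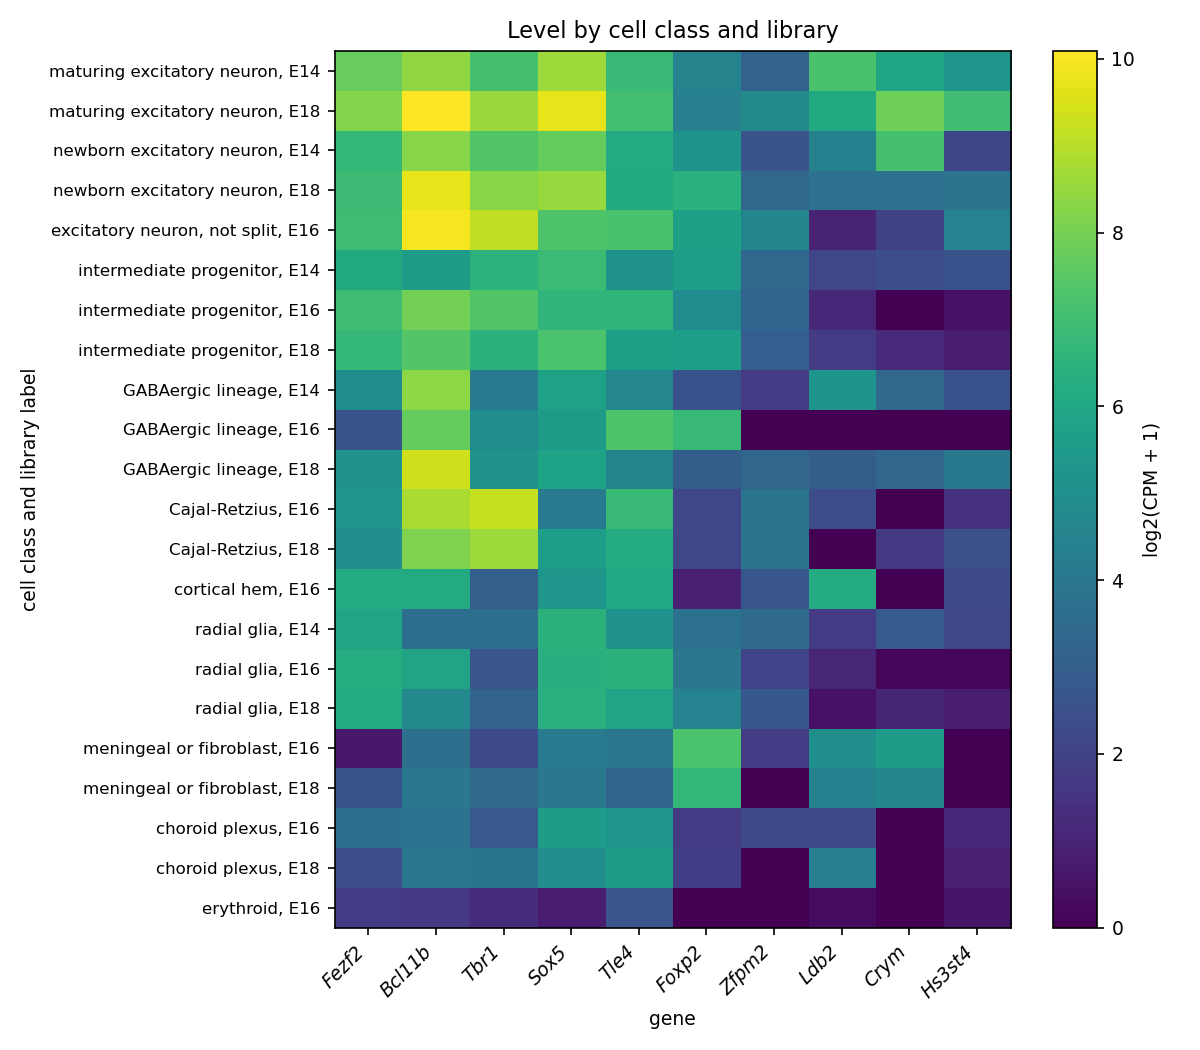
Level of the 10 genes (columns; colour, log2 of CPM + 1) in each cell class of each library with at least 20 cells (rows). Neuron rows are at the top, and Tbr1 and Bcl11b are also high in the Cajal-Retzius rows, at 394 to 596 and 279 to 454 CPM, and Foxp2 in the meningeal rows, at 101 to 151 CPM.

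Because neurons differ in depth, with medians of 11033, 8551.5 and 8879 UMIs in label order, shares of cells were taken after thinning each cell to 2000 UMIs. This left out 12, 5 and 13 shallower neurons. Bcl11b was detected in 33.0% (31.4 to 34.7), 73.0% (69.1 to 76.5) and 75.7% (73.9 to 77.4) of neurons, against 62.3%, 92.6% and 95.8% before thinning. Tbr1 was detected in 25.2%, 60.8% and 44.95%, Sox5 in 39.8%, 25.0% and 57.7%, and Fezf2 in 21.3%, 17.9% and 26.3%. The order of the shares was that of the levels for Tbr1, Sox5 and Fezf2, and for Bcl11b the libraries labelled E16 and E18 overlapped.

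The remaining genes were sparse at this depth. Tle4 was detected in 14.3%, 23.7% and 13.5% of neurons and Foxp2 in 5.20%, 8.67% and 12.7%. Ldb2 was detected in 13.7%, 0.173% and 4.79%, Crym in 7.71%, 0 of 577 cells and 6.22%, and Hs3st4 in 3.87%, 2.95% and 7.32%. The 0 for Crym allows a share of up to 0.520%, which is 3 counts of the total. It limits cells with a UMI at 2000 UMIs, not cells that express the gene: before thinning, 2.23% of these neurons had a Crym UMI. The 119 background cells had a median of 18719 UMIs. In the 118 deep enough, shares at the same depth were 1.69% for Bcl11b, 0.847% for Tbr1, 5.93% for Sox5, 10.2% for Tle4, 1.69% for Fezf2, 2.54% for Zfpm2, 3.39% for Ldb2 and 0 for Foxp2, Crym and Hs3st4, which allows up to 2.54%. The share for Tle4 in neurons of the libraries labelled E14 and E18, 14.3% and 13.5%, lay within the interval of the background share (5.37 to 17.1%) when pooled over clusters. Cluster 6 of the library labelled E14, at 27.9% (24.9 to 31.2), and the neurons labelled E16 (20.3 to 27.4%) lay above it. The Ldb2 share of neurons labelled E16 was below its background, and that of neurons labelled E18, 4.79%, lay within the background interval (0.931 to 8.45%); these cells include endothelial cells, with Ldb2 at 57.3 CPM. The share for Zfpm2 in neurons, 1.12%, 4.68% and 2.10%, was at or below that background in the libraries labelled E14 and E18 and within its interval (0.527 to 7.25%) in that labelled E16. These shares, from 3 background cells with a UMI, are not read. The levels over all UMIs, from 7.46 to 23.8 CPM in neurons, lay above that of the background cells (0.960 to 4.38 CPM). They did not lie above progenitors in every library: with the label E14, radial glia were at 10.2 CPM (7.75 to 13.3).

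Individual neurons carried few of the genes at once at this depth. The mean number detected was 1.65 (SD 1.42 over 3308 cells), 2.17 (SD 1.04 over 577 cells) and 2.51 (SD 1.28 over 2378 cells) in label order. At least 3 of the 10 were found in 23.5%, 37.8% and 49.4% of neurons, and none in 21.9%, 5.03% and 4.12%. The library labelled E14 had both more neurons with 0 and, with 4.50% against 0.867%, more with at least 5 than that labelled E16. Maturing neurons of the library labelled E18 had a mean of 3.21, against 0.990 in intermediate progenitors and 0.492 in radial glia of the same library.

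**Figure D4:**
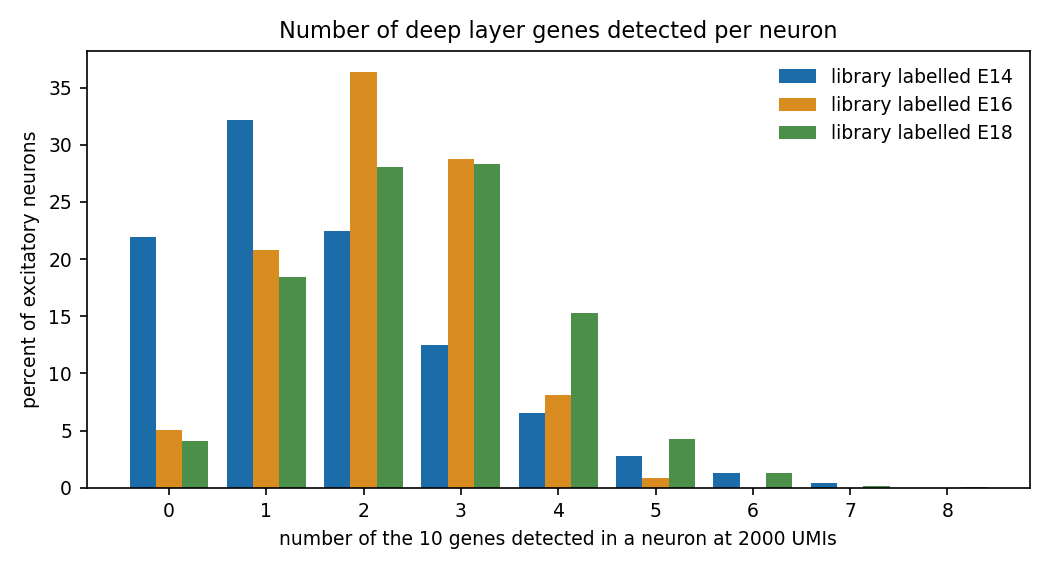
Percent of excitatory neurons (vertical axis) in which a given number of the 10 genes was detected after thinning to 2000 UMIs (horizontal axis), by library. The library labelled E14 has 21.9% of neurons with none of the genes, against 5.03% and 4.12% in those labelled E16 and E18.

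Co-detection of 2 genes was measured as the number of neurons with both divided by the number that independence would give, for pairs with at least 10 expected. Of the 45 pairs, 36, 18 and 38 could be measured in the libraries labelled E14, E16 and E18. The median ratio was 1.41, 0.98 and 1.05. In the library labelled E14, 33 of 36 pairs were above 1, against 7 of 18 and 29 of 38 in those labelled E16 and E18. The pairs share cells and genes and are not independent of each other.

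The highest ratios in the library labelled E14 were those of Tle4 with Hs3st4 (4.04), Crym (2.28) and Foxp2 (2.16), of Bcl11b with Hs3st4 (2.06) and of Fezf2 with Crym (1.90). The lowest were Foxp2 with Ldb2 (0.807), Tbr1 with Ldb2 (0.858), Fezf2 with Tbr1 (0.996), Tle4 with Ldb2 (1.02) and Tbr1 with Sox5 (1.04). Hs3st4 was found in 15.6% (12.5 to 19.2) of neurons with Tle4 and in 1.90% (1.43 to 2.48) of those without. Fezf2 and Tbr1, by contrast, occurred together as often as independence gives, in 177 neurons against 177.7 expected. The Tle4 share of this library, 14.3%, lay within the background interval when pooled over clusters, which limits the ratios of its pairs.

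In the library labelled E18, Tle4 with Hs3st4 was again the highest pair (1.70), followed by Fezf2 with Crym (1.49), Fezf2 with Hs3st4 (1.47), Sox5 with Hs3st4 (1.38) and Sox5 with Ldb2 (1.31). The lowest were Foxp2 with Crym (0.372), Foxp2 with Ldb2 (0.414), Sox5 with Zfpm2 (0.728), Fezf2 with Foxp2 (0.731) and Foxp2 with Hs3st4 (0.815). The ratio of Sox5 with Zfpm2 rests on a Zfpm2 share no higher than in background cells and is not read. The other 4 hold Foxp2, which was lower in maturing neurons of this library. Foxp2 and Crym were found together in 7 neurons, against 18.8 expected. The Tle4 and Ldb2 shares of this library, 13.5% and 4.79%, lay within their background intervals, which limits the ratios of pairs with either gene.

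Ratios in the library labelled E16 ran from 0.721 to 1.60. Tle4 with Foxp2 was highest (1.60), then Bcl11b with Sox5 (1.08), Zfpm2 (1.07, on a share within the background interval), Tbr1 (1.05) and Hs3st4 (1.05). The lowest were Sox5 with Foxp2 (0.721), Fezf2 with Sox5 (0.817), Fezf2 with Tle4 (0.818), Bcl11b with Foxp2 (0.822) and Tbr1 with Foxp2 (0.855). For 0 of the 18 pairs did the shares with and without the first gene have intervals apart, against 22 of 36 and 14 of 38 pairs in the libraries labelled E14 and E18. These intervals are wider with 577 neurons than with 3308 and 2378, so the counts do not compare the libraries.

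Other pairs were chosen for the roles of their genes. Fezf2 with Bcl11b had ratios of 1.49, 0.98 and 1.06 in label order, and Tbr1 with Bcl11b 1.07, 1.05 and 1.04. Tbr1 with Tle4 had 1.47, 1.00 and 1.13, and Tle4 with Foxp2 2.16, 1.60 and 1.12. The Tle4 shares in the libraries labelled E14 and E18 lay within the background interval. Crym with Bcl11b had 1.72 and 1.08 in the libraries labelled E14 and E18 and could not be measured in that labelled E16.

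**Figure D5:**
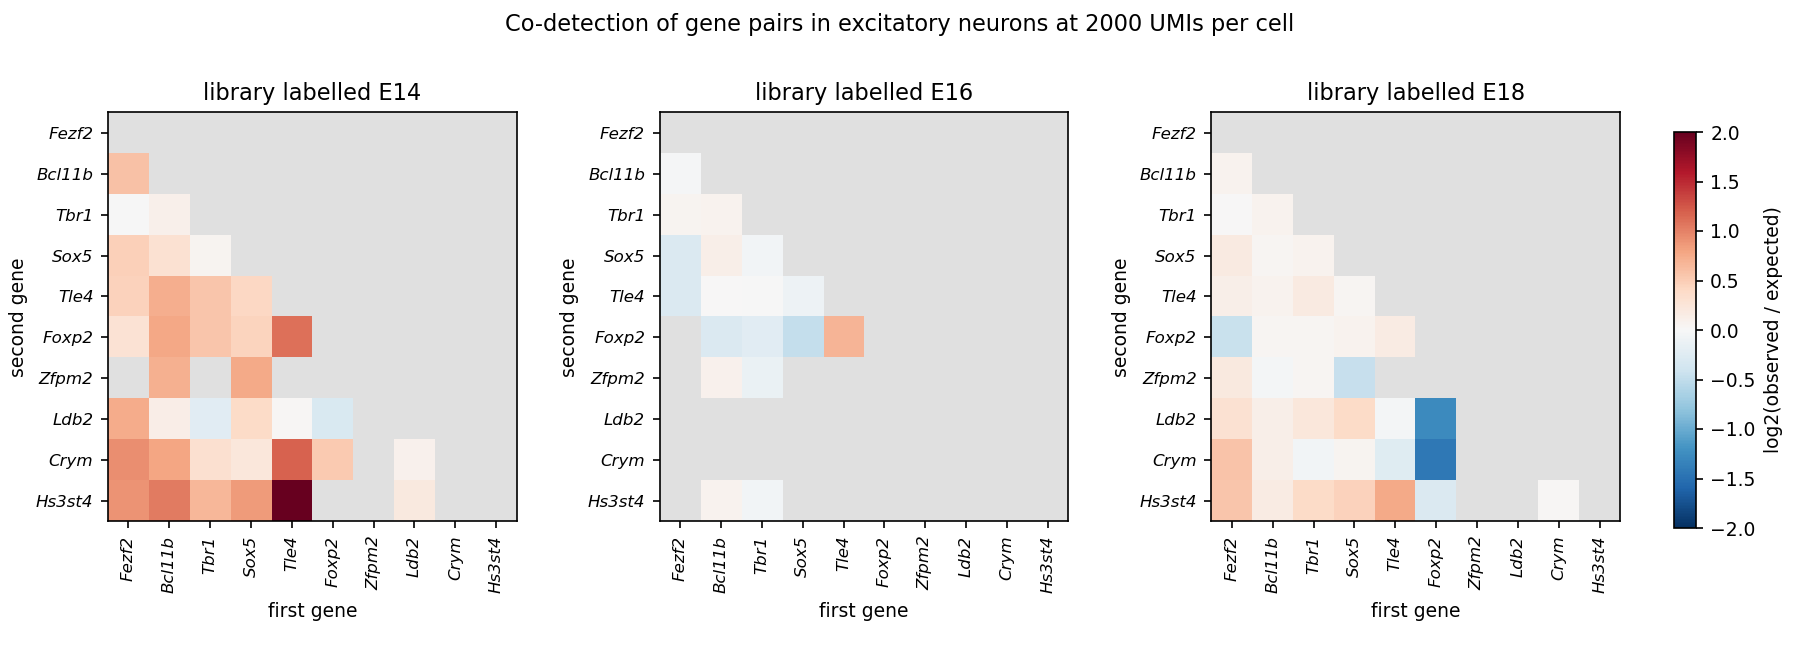
Co-detection of each pair of genes in excitatory neurons at 2000 UMIs, as log2 of observed over expected cells (colour; red, more often than expected; blue, less often; grey, under 10 cells expected or the mirrored cell), for the 3 libraries. In the library labelled E14, 33 of 36 measured pairs are above 1, and Tle4 with Hs3st4 is highest with a ratio of 4.04. The Tle4 share of neurons there lies within the interval of the background cells.

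Within single clusters, the ratios of the library labelled E14 were nearer to 1. The median was 1.08 over 38 pairs in cluster 6, 1.04 over 12 pairs in cluster 0 and 1.01 over 18 pairs in cluster 2, against 1.41 over all its neurons. Fezf2 with Bcl11b had 1.06 in cluster 6. Inside cluster 6, the shares with and without the first gene had intervals apart in 12 pairs, 9 above and 3 below 1. The highest were Tle4 with Hs3st4 (2.25) and with Crym (1.89), and the 3 low ones all held Ldb2, with Hs3st4 (0.586), Tle4 (0.756) and Tbr1 (0.758). In cluster 0, 2 were above and Bcl11b with Ldb2 (0.485) below. In cluster 9 of the library labelled E18, 3 were above, with Tle4 and Hs3st4 highest (1.67), and Crym was below with Hs3st4 (0.416) and Sox5 (0.796).

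Genes were compared by the correlation of log2(CPM + 1) over 22 points, each a cell class of a library, which share libraries and depth. Among 10501 genes, those most like Fezf2 were Zbtb18 (r = 0.90), Emx1 (0.89) and Tmem74 (0.89). Those most like Tbr1 were Prdm8 (0.93), Nrn1 (0.93) and Neurod1 (0.93), and those most like Bcl11b Tagln3 (0.95), LOC120096571 (0.94) and Parp6 (0.94). Sox5 was most like Zbtb18 (0.88) and Ssbp3 (0.88), Tle4 most like Ier5 (0.86) and Slc38a1 (0.85), and Foxp2 most like Sema3a (0.85), Foxp4 (0.83) and Sema6d (0.78). None of the nearest 3 genes of any of the 10 was itself one of the 10.

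The other 4 had lower or less familiar neighbours. Zfpm2 was most like LOC100910558 (0.80), Rapgef1 (0.79) and Gtdc1 (0.79), and Ldb2 most like Tgfb2 (0.80), Lgi1 (0.79) and Scarb1 (0.77). Crym was most like Cyria (0.90), LOC120094319 (0.85) and Kcna1 (0.83), and Hs3st4 most like LOC103691223 (0.89), Glra2 (0.88) and LOC120103126 (0.87). Among the 10 genes, the highest correlations were Bcl11b with Tbr1 (0.83) and Fezf2 with Sox5 (0.83), and those of Foxp2 were at most 0.44.

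RefSeq promoter sequences (build GRCr8, another build than that of the files) matched 4 of the 10 genes: Fezf2, Tbr1, Tle4 and Hs3st4. The 250 bases before the annotated start were searched on both strands for TCACACC (a T-box half-site), AACAAT (a SOX motif), CAGATG (an E-box) and TAATTA (a homeodomain core). These are held by 3.22%, 10.3%, 13.96% and 4.86% of 33469 promoter windows of that length. Tbr1 held AACAAT once, starting 96 bases before the start, and TAATTA at 33 and 18 bases, and no other match was found in the 4 windows. The Tbr1 window is shown because it holds the matches, in capitals, and those of Tle4 and Hs3st4 because this pair had the highest co-detection in 2 libraries.
Tbr1, chr3:66759553-66759802, plus strand: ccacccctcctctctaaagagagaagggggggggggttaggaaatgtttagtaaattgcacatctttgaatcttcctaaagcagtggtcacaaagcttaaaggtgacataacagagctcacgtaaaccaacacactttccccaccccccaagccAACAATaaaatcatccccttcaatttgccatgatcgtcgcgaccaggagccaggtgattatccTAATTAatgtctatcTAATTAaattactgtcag
Tle4, chr1:221222827-221223076, minus strand: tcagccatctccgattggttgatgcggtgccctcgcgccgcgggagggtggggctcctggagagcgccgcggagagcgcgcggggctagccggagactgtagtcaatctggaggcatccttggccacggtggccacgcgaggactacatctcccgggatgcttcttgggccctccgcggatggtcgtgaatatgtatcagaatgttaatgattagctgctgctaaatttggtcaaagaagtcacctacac
Hs3st4, chr1:187969877-187970126, plus strand: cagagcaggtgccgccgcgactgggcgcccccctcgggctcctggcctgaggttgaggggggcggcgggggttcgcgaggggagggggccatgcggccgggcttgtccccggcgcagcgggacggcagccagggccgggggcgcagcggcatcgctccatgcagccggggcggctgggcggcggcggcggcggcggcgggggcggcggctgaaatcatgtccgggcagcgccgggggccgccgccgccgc
The windows differ in composition, with 44.0% G and C in Tbr1, 59.6% in Tle4 and 82.4% in Hs3st4, against a median of 51.2% over all windows. A match describes letters only, and no match says nothing of a factor's binding.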

How the data were processed

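The 3 libraries were made with a 10x Genomics 3′ kit, per the labels' protocols, whose text also describes cultured cells, multiplexing and sorting of live human cells, which does not match freshly prepared rat cells. The deposited matrices hold counts of UMIs per gene and barcode, not normalized. Per the file headers the software was Cell Ranger 6.0.1, with build mRatBN7.2 per the submitters' processing notes. The strand setting of the counting is not given in the sources used here. Of the genes that overlap one of the 10 in RefSeq, those in the files had at most 0.174 CPM in neurons.

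From the counts, barcodes with at least 1000 genes and at most 10% mitochondrial UMIs were kept (4444 of 7100, 5193 of 6707 and 5690 of 6937). Scrublet scores removed the highest 0.8% per 1000 cells, 158, 216 and 259 cells, because its own threshold marked 1.94%, 0.0385% and 2.65%. Cells were clustered in Scanpy 1.11.5 (2000 variable genes, 30 components, 15 neighbours, Leiden resolution 1) without the 10 genes and the deep and upper layer lists. Of 27 clusters 26 were named. Of all 27, 13 clusters, with 69.6% of cells, held over 90% of their cells from 1 library.

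A cluster took the class whose markers were highest over other cells of the same libraries, with at least 3 markers raised 1.2-fold provided that its 10 leading genes (at least 200 CPM) held no more markers of another class. This rule was settled after the clusters were seen: 4 versions were run, and with 50 CPM for leading genes, cluster 6 of the library labelled E14 (813 cells) stays unnamed. Of 123 markers 121 are in the files.

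Levels are summed UMIs per 1000000 UMIs of the class. Differences used log2(CPM + 1) over genes with at least 5 CPM on average over the groups compared. Cells were thinned to 2000 UMIs by random draws. Scripts were tested on simulated data. The 10 genes and all lists were chosen with earlier results of these data known. Named were all 10 genes, genes of the other lists past 2-fold in all 3 pairs, the 3 most like genes and the 5 highest and lowest pairs per library. Some results that this rule names are not reported here. Ctgf of the deep layer list is not analysed here. Alternatives covered cell filter, clustering, doublets, a gate on Neurod2 and Neurod6 without Eomes, Gad1, Gad2 or Reln, depth, added CPM, minimum and scaling.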

Additional observations from a re-analysis of the deposited data

Results flagged for a closer look

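Crym was flagged because it differed past 2-fold in opposite directions under the same contrast. From newborn to maturing neurons, its log2 difference was -1.20 in the library labelled E14 and 4.09 in that labelled E18. From the library labelled E14 to that labelled E18, it was -3.35 in newborn neurons and 1.93 in maturing neurons. The value of -3.35 was -0.96 without doublet removal, and that of 1.93 was 0.47 at resolution 0.5, both then short of 2-fold. The difference between these effects was not tested, as each rests on 1 library. Of the 1521 Crym UMIs in newborn neurons of the library labelled E14, 1330 lay in cluster 19, and the larger newborn cluster, number 2, was at 25.7 CPM against 61.0 CPM in maturing neurons. The stricter cell filter left out 208 of the 212 cells of cluster 19.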

How the results depend on the processing

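Of 101 recomputed values of the median differences, the mean number of genes per neuron and the median co-detection ratios, 70 stayed within their interval or within 1.5 times and 31 moved. The median log2 difference from the library labelled E14 to that labelled E16 (0.03) was 0.50 with the stricter cell filter, -0.45 with a minimum of 20 CPM and 1.65 without cluster 6. That from E16 to E18 (0.42) was 0.97 with the stricter filter, 0.74 with gated neurons and 0.19 with a minimum of 20 CPM. That from E14 to E18 (0.88) was 1.16 with the stricter filter, 0.81 at Leiden resolution 2, 0.68 with 10 CPM added, 0.75 with a minimum of 20 CPM and 1.46 without cluster 6. The mean number of genes per neuron in label order (1.65, 2.17 and 2.51) was 0.978, 1.40 and 1.60 at 1000 UMIs per cell, 2.58, 3.12 and 3.55 at 4000 UMIs, 1.04, 1.86 and 2.37 with the stricter filter, and 1.82, 2.26 and 2.65 at Leiden resolution 2. It was 1.73 and 2.67 in the libraries labelled E14 and E18 with the looser filter, 2.27 and 2.71 in those labelled E16 and E18 with gated neurons, 2.81 and 2.61 in that labelled E18 at resolution 0.5 and without doublet removal, 1.195 in that labelled E14 without cluster 6, and 2.26 in that labelled E16 with another random draw. The causes were not tested. The median co-detection ratio of the library labelled E14 (1.41) was 1.10 without cluster 6. For single genes, the difference of Crym from newborn to maturing neurons of the library labelled E14 (-1.20) reversed to 2.14 at resolution 0.5 and to 0.044 without doublet removal. Leaving out cluster 6 and the other random draw were chosen after seeing the data. No paired analysis was possible because each group has 1 library. In the library labelled E16, Ldb2 and Crym rest on 5 and 15 UMIs of 5283587 in neurons, and pairs with under 10 expected cells were not measured.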
